A study of Mus musculus with 9 samples.

Results

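10 genes that mark the fetal liver, liver progenitors and hepatocellular carcinoma were followed in bulk RNA-seq of mouse liver tumors. They were chosen by name as Afp, H19, Igf2, Gpc3, Dlk1, Igf2bp1, Igf2bp3, Lin28b, Sox9 and Epcam, and they make up 10 of the 50387 genes and gene groups with a symbol in the expression tables. Each of the 10 had 1 entry in every tumor, and none shared an entry with another of the 10. The H19 entry also carried the microRNA gene Mir675, the Igf2bp1 entry the microRNA gene Mir3063 and the Igf2 entry the overlapping gene Gm49394 in all 9 tumors, so the values of these 3 belong to the joined entries.

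The tumors grew from Hepa1-6, a hepatoma cell line of C57L mouse origin, implanted as pieces of subcutaneous tumor into the liver of male C57BL/6 mice aged 6 to 8 weeks. The mice received PBS or an antibody against the checkpoint receptor PD-1 (clone RMP1-14, 5 mg/kg) into the peritoneum 5 times, at intervals of 4 days from day 10 to day 26, and tumors were taken on day 27. The 3 groups were PBS-treated tumors, anti-PD-1 antibody-nonresponsive tumors and anti-PD-1 antibody-responsive tumors, with 3 tumors in each. The nonresponsive tumors were the largest and the responsive tumors the smallest of the treated ones, intermediate tumors having been set aside, so response stands for tumor size at the end of treatment. All 9 mice carried the same cell line, no liver without tumor was included, and surrounding tissue was trimmed from each tumor before freezing.

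Oncofetal genes are active in the fetus, silent or low in the adult organ and active again in tumors. Afp (alpha-fetoprotein) is the serum protein that fetal hepatocytes make before albumin takes its place, and Gpc3 is a heparan sulfate proteoglycan of the cell surface used in the diagnosis of hepatocellular carcinoma. H19 and Igf2 are neighbours in 1 imprinted cluster, where the noncoding RNA H19 is read from the maternal copy and the growth factor Igf2 from the paternal copy. Dlk1, a Notch-like membrane protein of hepatoblasts, is imprinted too. Igf2bp1 and Igf2bp3 are RNA-binding proteins that stabilize target messages, Igf2 and Myc among them, and Lin28b blocks maturation of the let-7 microRNAs, which repress several of these genes. Sox9 (a transcription factor) and Epcam (an adhesion protein) mark bile duct cells and liver progenitors and are low in mature hepatocytes.

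By the mean FPKM over the 9 tumors (fragments scaled for transcript length and for library size, which is a level per length and so comparable between genes), Afp stood highest at 21.0. It was followed by H19 at 13.8, Epcam at 9.22, Gpc3 at 6.55, Igf2bp1 at 6.26, Sox9 at 4.74, Igf2 at 2.94 and Igf2bp3 at 1.70. Neighbours in this order overlapped in their ranges over the tumors throughout. Dlk1 had a mean of 0.197 and Lin28b one of 0.0760, and neither reached 1 FPKM in any tumor. These 2 were therefore not tested, while the other 8 reached 1 FPKM in at least 1 tumor of every group and entered all comparisons.

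**Figure D1:**
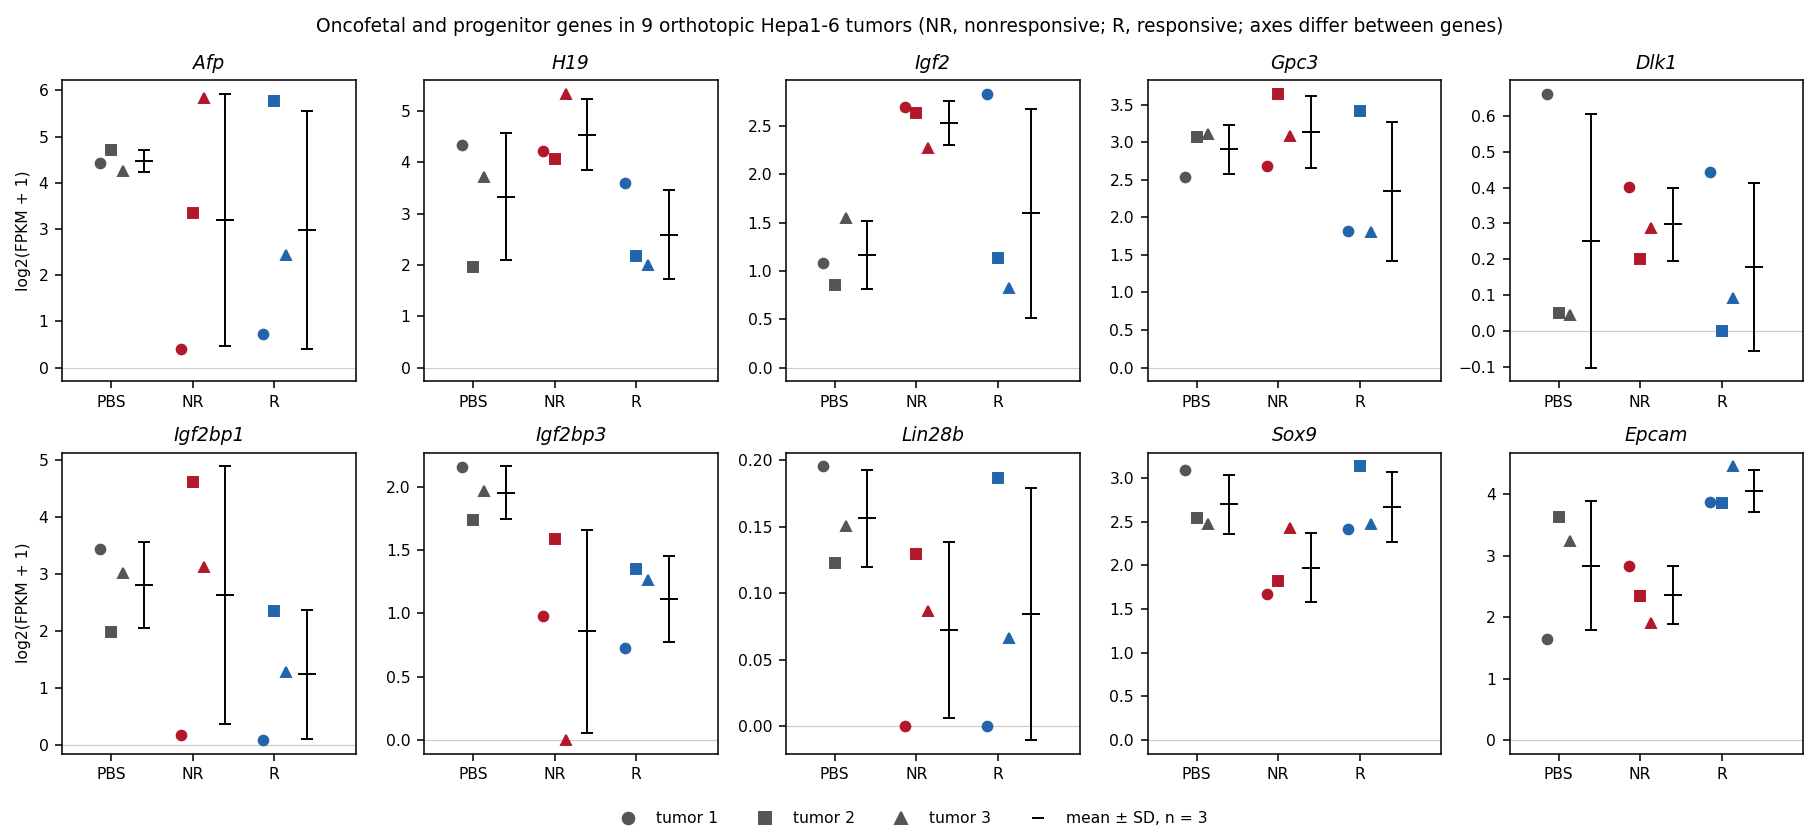
Level of each of the 10 genes in each tumor, as log2(FPKM + 1) on the vertical axis of each panel, for PBS-treated, nonresponsive (NR) and responsive (R) tumors. Circles, squares and triangles are tumors 1, 2 and 3 of a group, and bars give the mean and SD of 3 tumors. Epcam lies higher in the 3 responsive tumors than in all other tumors, while Afp and Igf2bp1 spread widely within both treated groups.

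The clearest contrast between responsive and nonresponsive tumors lay in 2 genes with opposite directions. Epcam was higher in all 3 responsive tumors than in all 3 nonresponsive tumors, and H19 was lower in all 3. Both had an unadjusted limma p under 0.05, as 2 of the 8 tested genes did, against 5.49% of all 13837 genes tested. Groups did not overlap for these 2 of 8 genes, against 10.5% of all genes tested. None of the 8 passed an adjusted p of 0.05, against 0.116% of all genes, and their adjusted p-values lay between 0.719 and 0.996. Where groups do not overlap, the two-sided exact permutation test gives p = 0.1, the smallest value that 3 against 3 tumors allow.

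Compared with PBS-treated tumors, responsive tumors had lower Igf2bp3, the 1 gene of 8 with an unadjusted p under 0.05, against 17.2% of all 13844 genes tested. Epcam (higher) and Igf2bp3 (lower) did not overlap between these groups, against 28.0% of all genes, and 0 of 8 passed the adjusted threshold, against 0.231%. Nonresponsive tumors had higher Igf2 and lower Igf2bp3 than PBS-treated tumors, 2 genes of 8 with an unadjusted p under 0.05, against 3.23% of all 13798 genes. Sox9 (lower), Igf2 and Igf2bp3 did not overlap between these groups, against 8.20% of all genes, and 0 of 8 passed the adjusted threshold, against 0.0797%. In the moderated F-test over the 3 groups, Epcam alone of the 8 had an unadjusted p under 0.05 (adjusted p = 0.581), against 8.37% of 14466 genes, and none had an adjusted p under 0.05, against 0.124%. The F-test p of Epcam was under 0.05 in 9 of 16 other settings, and ran from 0.00267 to 0.104 over them. The 3 comparisons share tumors, so a gene's differences in them are not independent of each other.

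**Figure D2:**
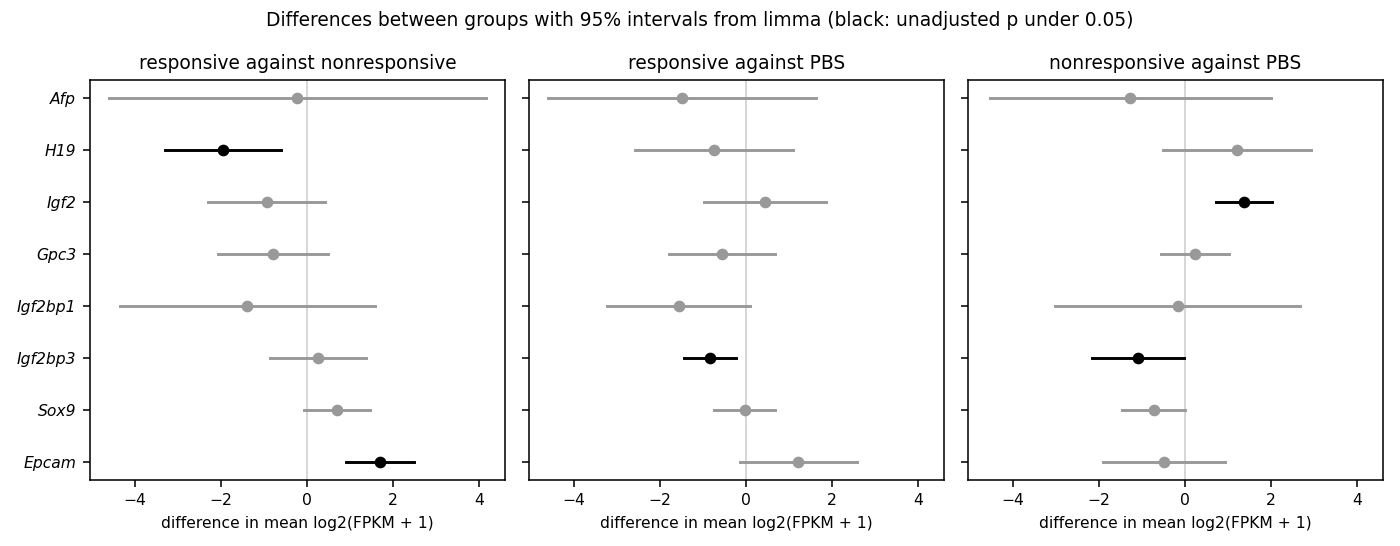
Difference between group means on the log2(FPKM + 1) scale (horizontal axis) for the 8 tested genes in the 3 comparisons, with 95% intervals from limma. Black marks an unadjusted p under 0.05, which applies to Epcam and H19 between responsive and nonresponsive tumors, to Igf2bp3 between responsive and PBS-treated tumors, and to Igf2 and Igf2bp3 between nonresponsive and PBS-treated tumors.

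Nonresponsive tumor 1 and responsive tumor 1 stood apart from the other 7, which touches several of these genes. On the list of biliary and progenitor markers (17 genes or gene groups measured, without Sox9 and Epcam) their mean log2(FPKM + 1) was 2.94 and 3.45, against 4.28 to 4.90 in the other tumors. On the proliferation list of 14 genes it was 2.93 and 3.30, against 4.54 to 5.82. The mature hepatocyte list of 30 genes had a mean of 3.20 to 6.21 in the PBS-treated, 5.60 to 7.30 in the nonresponsive and 7.30 to 8.30 in the responsive tumors, and no gene of it stayed under 1 FPKM in all tumors. Where genes of a list are counted by an unadjusted p under 0.05, the shares of all genes are 5.49% between responsive and nonresponsive tumors, 17.2% between responsive and PBS-treated tumors and 3.23% between nonresponsive and PBS-treated tumors. Without nonresponsive tumor 1 and responsive tumor 1 these shares are 6.55%, 7.44% and 1.86%. Nonresponsive tumor 2 also held pancreatic acinar transcripts, with a list mean of 6.93 against 0.31 to 0.38 elsewhere, and skeletal muscle transcripts were highest in nonresponsive tumor 3 (4.57) and PBS-treated tumor 1 (2.70). Entries without a gene name took between 19.2% and 81.5% of the summed FPKM, and 70.4% to 73.2% in the nonresponsive tumors. In bulk tissue, fewer cells of a type and less RNA per cell cannot be told apart, and the part of these differences in the results was not tested.

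Afp, the reference marker of hepatoma cells, was even in the PBS-treated tumors at 20.4, 25.3 and 18.2 FPKM. In nonresponsive tumors it was 0.321, 9.18 and 56.5 FPKM, and in responsive tumors 0.646, 53.9 and 4.40 FPKM. Both treated groups thus held a tumor above and a tumor far below every PBS-treated tumor, and the lowest 2 tumors were nonresponsive tumor 1 and responsive tumor 1. The upper 95% bounds that Cufflinks gave for these 2 tumors were 0.815 and 1.13 FPKM, and the lower bound for the lowest PBS-treated tumor was 16.5 FPKM. Responsive and nonresponsive tumors differed by −0.22 on the log2 scale (standard error 1.79, exact permutation p = 0.9, limma p = 0.906, adjusted p = 0.996). It changed sign without nonresponsive tumor 3 (1.10), without responsive tumor 1 (0.91) or without responsive tumor 3 (0.05), and was −1.62 without nonresponsive tumor 1 or without responsive tumor 2.

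Against the PBS-treated tumors, Afp differed by −1.49 in responsive (standard error 1.26, exact permutation p = 0.4, limma p = 0.284, adjusted p = 0.501) and by −1.27 in nonresponsive tumors (standard error 1.32, exact permutation p = 0.7, limma p = 0.376, adjusted p = 0.722). Single tumors of both treated groups moved these values in either direction. The first was −2.89 without responsive tumor 2 (unadjusted p under 0.05, adjusted p = 0.159) and −0.36 without responsive tumor 1. The second was −2.59 without nonresponsive tumor 3 (unadjusted p under 0.05, adjusted p = 0.358) and 0.13 without nonresponsive tumor 1.

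The 2 tumors lowest for Afp were also the lowest for Foxa2, a transcription factor that reads liver promoters. The promoter of Afp is shown for this match. The same tumors were also the lowest for the proliferation list and the biliary and progenitor list, so the match is not particular to Afp and Foxa2. No Foxa2 site was sought in the promoter, and the part of Foxa2 in the Afp values was not tested. The Afp gene lies on chromosome 5 and spans bases 90490737 to 90508907 on the plus strand (GRCm38, GENCODE M21). The 250 bases before the RefSeq start (GRCm38.p6, chr5:90490464-90490713, plus strand) are 36.0% G or C. Capitals mark a match to TATAAA, the letters of a TATA box, from 7 to 2 bases before this RefSeq start. The GENCODE start at base 90490737 lies further downstream, so the match is more distant from that start.

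Afp promoter: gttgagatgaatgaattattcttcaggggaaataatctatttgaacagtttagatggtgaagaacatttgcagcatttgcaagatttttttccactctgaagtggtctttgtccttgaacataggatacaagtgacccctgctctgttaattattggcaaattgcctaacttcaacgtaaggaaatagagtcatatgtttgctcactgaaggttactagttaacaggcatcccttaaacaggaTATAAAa

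On either strand, 12.4% of 32851 RefSeq promoter windows of 250 bases held TATAAA. Promoter entries were found for 7 of the 10 genes and not for H19, Igf2bp1 and Sox9. Among 15 regulators and relatives of Afp, 5 were higher in the responsive than in the nonresponsive tumors at an unadjusted p under 0.05 and none was lower, with a median difference of 0.58 against −0.07 over all genes tested. They were Alb, Afm and Gc, the neighbours of Afp in the albumin gene cluster, and the factors Foxa1 and Hnf4a. The difference of Afp itself was −0.22. Against PBS-treated tumors 9 of the 15 were higher in responsive tumors and 1, the Afp repressor Zfhx3, was lower (median 0.80 against −0.11), and 0 of 15 differed in nonresponsive tumors (median 0.09 against −0.06). The shares of all genes with such a p were 5.49% between responsive and nonresponsive tumors, and 17.2% and 3.23% in these comparisons with PBS. Without nonresponsive tumor 1 and responsive tumor 1, the counts of higher genes were 6, 5 and 0, against 6.55%, 7.44% and 1.86% of all genes.

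Foxa2, a pioneer factor of liver and bile duct, had 60.5, 28.3 and 43.0 FPKM in the PBS-treated, 3.04, 16.5 and 43.1 in the nonresponsive and 5.59, 50.4 and 11.4 in the responsive tumors, with its lowest values in the 2 tumors that were lowest for Afp. Alb ran the other way, at 173, 835 and 1259 FPKM in the PBS-treated, 2678, 1490 and 885 in the nonresponsive and 5041, 2576 and 4396 in the responsive tumors. The tumors with the least Afp therefore held the most Alb within each treated group.

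Gpc3 varied less than Afp. Its FPKM was 4.78, 7.41 and 7.67 in the PBS-treated, 5.43, 11.5 and 7.45 in the nonresponsive and 2.53, 9.71 and 2.50 in the responsive tumors. Responsive tumors 1 and 3 were the lowest of the 9, but responsive tumor 2 exceeded all tumors other than nonresponsive tumor 2, so the groups overlapped. Responsive and nonresponsive tumors differed by −0.79 (standard error 0.523, exact permutation p = 0.3, limma p = 0.184, adjusted p = 0.973), with −1.32 without responsive tumor 2 (unadjusted p under 0.05, adjusted p = 0.763) and −0.52 without responsive tumor 1 or 3. Against PBS-treated tumors it was −0.56 in responsive tumors (standard error 0.495, exact permutation p = 0.4, limma p = 0.306, adjusted p = 0.520), with −1.09 without responsive tumor 2 (unadjusted p under 0.05, adjusted p = 0.159) and −0.29 without responsive tumor 1 or 3. In nonresponsive tumors the difference from PBS was 0.23 (standard error 0.318, exact permutation p = 0.5, limma p = 0.499, adjusted p = 0.759), and −0.03 without nonresponsive tumor 2.

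Of the 5 other glypicans measured, 3 were tested and none had an unadjusted p under 0.05 in any comparison. Gpc1 had the highest mean of these over the tumors, although not the highest value in every tumor, at 28.2 to 50.5 FPKM in the PBS-treated, 11.1 to 34.5 in the nonresponsive and 10.3 to 47.0 in the responsive tumors, and Gpc5 was listed at 0 in all 9. The genes whose pattern over the 9 tumors was most like that of Gpc3 on the log2 scale, among 10779 genes at 1 FPKM or more in all tumors, were Gvin-ps4 (Pearson r = 0.92), Ogfr (r = 0.91) and Mapk12 (r = 0.90).

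H19 was 19.1, 2.87 and 12.0 FPKM in the PBS-treated, 17.6, 15.7 and 39.3 in the nonresponsive and 11.0, 3.52 and 3.01 in the responsive tumors. Every nonresponsive tumor was above every responsive tumor, and the PBS-treated tumors spread over both ranges. The 2 tumors highest for H19, nonresponsive tumor 3 and PBS-treated tumor 1, also had the highest skeletal muscle list means (4.57 and 2.70). The part of muscle tissue in the H19 values was not tested. The mean was 24.2 ± 13.1 FPKM (SD, n = 3) in nonresponsive and 5.85 ± 4.49 FPKM (SD, n = 3) in responsive tumors. The difference was −1.95 (standard error 0.551, 95% interval −3.30 to −0.59, exact permutation p = 0.1, limma p = 0.0126, adjusted p = 0.885). It kept its direction and an unadjusted p under 0.05 in all 14 other settings, between −2.61 and −1.55 with p-values from 0.00277 to 0.0420, and was −2.61 without nonresponsive tumor 1 and responsive tumor 1. Nonresponsive tumors exceeded PBS-treated tumors by 1.21 (standard error 0.694, exact permutation p = 0.3, limma p = 0.135, adjusted p = 0.717), by 1.71 without PBS-treated tumor 1 (unadjusted p under 0.05, adjusted p = 0.999) and by 0.52 without PBS-treated tumor 2. Responsive tumors differed from PBS-treated tumors by −0.74 (standard error 0.743, exact permutation p = 0.5, limma p = 0.359, adjusted p = 0.563), with −0.24 without PBS-treated tumor 1 and −1.43 without PBS-treated tumor 2.

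The H19 gene lies on chromosome 7 from base 142575529 to 142578143 on the minus strand (GRCm38, GENCODE M21) and hosts the microRNA miR-675 in an exon of 3 of its transcripts. Both mature arms from RefSeq (GRCm38.p6, minus strand, chr7:142577112-142577133 for 5p and chr7:142577078-142577099 for 3p) are shown because the expression tables join this microRNA with H19 in 1 entry. Capitals mark the seed, bases 2 to 8, which differs between the arms.

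miR-675-5p: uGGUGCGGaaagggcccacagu

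miR-675-3p: cUGUAUGCccuaaccgcucagu

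The libraries were made for long RNA, so the entry reports the H19 transcript, and the mature arms were not measured. The gene most like H19 over the 9 tumors was Ift57, a part of the transport machinery of cilia (r = 0.94). It was followed by Zcchc9 and Micos10 (r = 0.88 for both).

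Igf2, the imprinted neighbour, was 1.12, 0.805 and 1.92 FPKM in the PBS-treated, 5.47, 5.20 and 3.84 in the nonresponsive and 6.13, 1.19 and 0.771 in the responsive tumors. All 3 nonresponsive tumors lay above all 3 PBS-treated tumors, and responsive tumor 1 was the highest of all while the other two responsive tumors stood near PBS levels. The mean was 4.83 ± 0.871 FPKM (SD, n = 3) in nonresponsive and 1.28 ± 0.572 FPKM (SD, n = 3) in PBS-treated tumors. This difference was 1.37 (standard error 0.259, 95% interval 0.73 to 2.01, exact permutation p = 0.1, limma p = 0.00208, adjusted p = 0.717), and it lay between 1.22 and 1.90 with p-values from 0.00176 to 0.0259 in all 13 other settings that tested it. The precision is low in PBS-treated tumors 1 and 2, where Cufflinks gave a 95% lower bound of 0.

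Between responsive and nonresponsive tumors Igf2 differed by −0.94 (standard error 0.552, exact permutation p = 0.4, limma p = 0.141, adjusted p = 0.960), by −1.56 without responsive tumor 1 (unadjusted p under 0.05, adjusted p = 0.848) and by −0.55 without responsive tumor 3. Against PBS-treated tumors the responsive tumors differed by 0.44 (standard error 0.571, exact permutation p = 0.7, limma p = 0.476, adjusted p = 0.655), a value that turned to −0.18 without responsive tumor 1. H19 and Igf2, read from opposite parental copies, had r = 0.66 over the 9 tumors.

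Marker lists of other cells had mostly positive differences between nonresponsive and PBS-treated tumors, with few genes at an unadjusted p under 0.05. All 12 macrophage markers had a positive difference (median 0.84 against −0.06 over all genes), and 2 of them, C1qb and C1qc, were higher at an unadjusted p under 0.05, against 3.23% of all genes and 0 of the 12 without nonresponsive tumor 1. C1qb and C1qc had equal values in nonresponsive tumors 1 (869 FPKM) and 2 (972 FPKM) but not in the PBS-treated tumors. They are thus not 2 separate measurements, and the part of this in their differences was not tested. Of 12 fibroblast and stellate cell markers 11 had a positive difference (median 0.46), with 1, Lrat, at an unadjusted p under 0.05. The difference was also positive for 10 of 10 endothelial markers (median 0.56), with 0 at an unadjusted p under 0.05, and for 29 of 30 mature hepatocyte genes (median 1.41), with 1 at such a p. The macrophage list mean was 6.26 to 7.59 in PBS-treated and 7.26 to 8.46 in nonresponsive tumors, and the fibroblast mean 5.52 to 6.49 and 6.17 to 6.97. Their part in the higher Igf2 was not tested.

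Dlk1, the third imprinted gene, stayed low, at 0.581, 0.0355 and 0.0327 FPKM in the PBS-treated, 0.322, 0.149 and 0.222 in the nonresponsive and 0.360, 0 and 0.0671 in the responsive tumors. Every Cufflinks lower bound for it was 0, so no difference could be detected at this precision. Of 16 other imprinted genes and gene groups, 12 were tested between responsive and nonresponsive tumors, and 1 had a positive difference (median −0.28 against −0.07 over all genes). Dio3, which inactivates thyroid hormone and lies in the Dlk1 cluster, was lower in the responsive tumors at an unadjusted p under 0.05, with 1.39, 3.44 and 2.97 FPKM in the nonresponsive and 0.532, 0.242 and 0.979 FPKM in the responsive tumors (difference −1.16, standard error 0.330, unadjusted limma p under 0.05, adjusted p = 0.885). Of these tumors only the nonresponsive ones reached 1 FPKM for Dio3, so the filter admitted it through the group where it was high. Its p-value is therefore a description only and lends no support. Dio3 was 1 of 12 genes, against 5.49% of all genes. Without nonresponsive tumor 1 and responsive tumor 1, 0 of the list had an unadjusted p under 0.05. Between nonresponsive and PBS-treated tumors 8 of 9 tested had a positive difference (median 0.57 against −0.06) and between responsive and PBS-treated tumors 5 of 8 (median 0.29 against −0.11), none with an unadjusted p under 0.05. Meg3, the maternal noncoding RNA of the Dlk1 cluster, was 9.55, 10.7 and 4.03 FPKM in the PBS-treated, 12.7, 10.5 and 5.62 in the nonresponsive and 9.86, 7.77 and 4.03 in the responsive tumors.

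On the insulin-like growth factor list of 14 genes, 2 differed between responsive and nonresponsive tumors at an unadjusted p under 0.05. The binding protein gene Igfbp2 was higher, at 22.6, 9.45 and 5.66 FPKM in the nonresponsive and 71.7, 19.9 and 30.7 FPKM in the responsive tumors, and these groups overlapped. Igfbp6, whose product prefers IGF2 as its ligand, was lower without overlap, at 15.1, 24.9 and 14.2 FPKM against 6.19, 1.19 and 3.94 FPKM (difference −2.12, standard error 0.489, unadjusted limma p under 0.05, adjusted p = 0.885). Against PBS-treated tumors 4 of 14 genes, Igf1, Igfals, Igfbp1 and Igfbp2, were higher in responsive tumors at an unadjusted p under 0.05 (against 17.2% of all genes) and 2, Igf1 and Igfbp6, in nonresponsive tumors (against 3.23%), with medians over the list of 0.08 and 0.32. Igf2r, the receptor that clears IGF2, was 6.35, 11.2 and 8.09 FPKM in the PBS-treated, 16.7, 14.6 and 7.31 in the nonresponsive and 15.7, 7.77 and 12.9 in the responsive tumors, and did not pass in any comparison. Without nonresponsive tumor 1 and responsive tumor 1, 2 genes of the list were higher and 1 lower between responsive and nonresponsive tumors, while against PBS 3 were higher in responsive and 0 in nonresponsive tumors.

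Igf2bp1 had the widest range of the RNA-binding proteins, at 9.77, 2.93 and 7.03 FPKM in the PBS-treated, 0.130, 23.3 and 7.65 in the nonresponsive and 0.0655, 4.09 and 1.44 in the responsive tumors. As for Afp, nonresponsive tumor 1 and responsive tumor 1 were the lowest of the 9, and the upper 95% bounds of 1.22 and 1.17 FPKM in these tumors lay under the lower bound of 1.67 FPKM in the lowest PBS-treated tumor. Responsive differed from nonresponsive tumors by −1.39 (standard error 1.21, exact permutation p = 0.4, limma p = 0.295, adjusted p = 0.973), with −2.62 without nonresponsive tumor 1 (unadjusted p under 0.05, adjusted p = 0.397), −0.40 without nonresponsive tumor 2 and −0.82 without responsive tumor 1. Against PBS-treated tumors the responsive tumors differed by −1.56 (standard error 0.671, exact permutation p = 0.2, limma p = 0.0612, adjusted p = 0.295), by −1.98 without PBS-treated tumor 2 (unadjusted p under 0.05), by −2.11 without responsive tumor 2 (unadjusted p under 0.05) and by −0.99 without responsive tumor 1. Nonresponsive tumors differed from them by −0.17 (standard error 1.15, exact permutation p = 0.9, limma p = 0.886, adjusted p = 0.954), a value that turned to 0.14 without PBS-treated tumor 1 and to 1.05 without nonresponsive tumor 1.

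**Figure D3:**
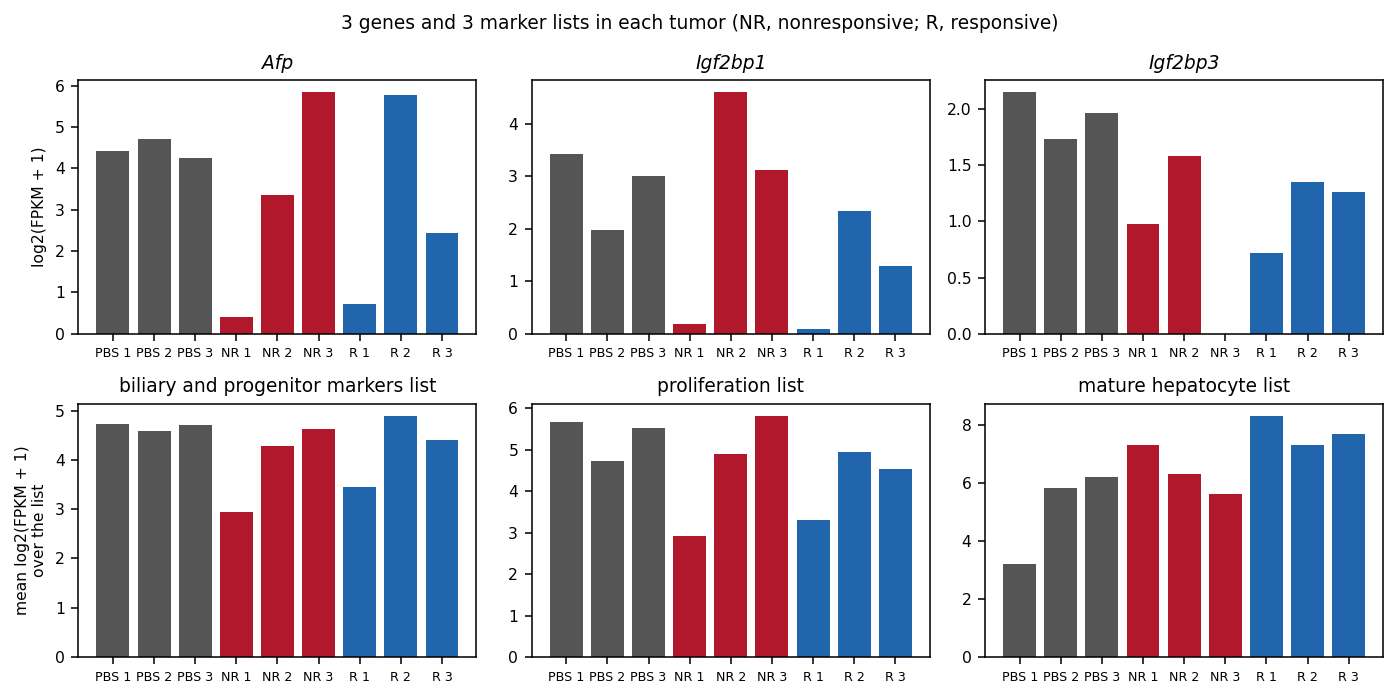
Levels of Afp, Igf2bp1 and Igf2bp3 (upper row, log2(FPKM + 1)) and mean log2(FPKM + 1) of 3 marker lists (lower row) in each of the 9 tumors, 1 bar a tumor. Nonresponsive tumor 1 and responsive tumor 1 have the lowest Afp and Igf2bp1 and the lowest means of the biliary and progenitor list (2.94 and 3.45) and of the proliferation list (2.93 and 3.30).

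Igf2bp3 was highest in the PBS-treated tumors, at 3.45, 2.33 and 2.90 FPKM, and reached 0.975 and 2.00 FPKM in nonresponsive tumors 1 and 2 and 0.651, 1.55 and 1.40 in responsive tumors. Nonresponsive tumor 3 listed it at 0. No treated tumor reached the lowest PBS-treated tumor. The difference from PBS was −0.84 in responsive tumors (standard error 0.244, 95% interval −1.44 to −0.23, exact permutation p = 0.1, limma p = 0.0150, adjusted p = 0.281), and its unadjusted p was under 0.05 in 11 of 13 other settings, the exceptions being a fit of all 9 tumors (p = 0.0685) and the replicate block (p = 0.0631). In nonresponsive tumors it was −1.09 (standard error 0.433, exact permutation p = 0.1, limma p = 0.0461, adjusted p = 0.717). Its unadjusted p was above 0.05 without any 1 of the PBS-treated tumors or without nonresponsive tumor 1, although the difference kept its size there, between −1.20 and −0.99. It was above 0.05 too without nonresponsive tumor 3, where the difference was −0.67. Without nonresponsive tumor 2 the difference was −1.46 with an unadjusted p under 0.05. There the PBS-treated tumors alone reached 1 FPKM, so the filter admitted Igf2bp3 through the group where it was high. That p-value is a description only and lends no support. Responsive and nonresponsive tumors differed by 0.26 (standard error 0.452, exact permutation p = 0.7, limma p = 0.592, adjusted p = 0.980), which turned to −0.17 without nonresponsive tumor 3.

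Lin28b was at the limit of detection. It was 0.145, 0.0889 and 0.110 FPKM in the PBS-treated, 0, 0.0940 and 0.0618 in the nonresponsive and 0, 0.138 and 0.0469 in the responsive tumors. The 2 values of 0 were those of nonresponsive tumor 1 and responsive tumor 1, and a lower bound above 0 was given in PBS-treated tumor 1 and responsive tumor 2 alone. Of 13 other genes and gene groups of the Lin28 and let-7 axis, 0 of 9 tested had an unadjusted p under 0.05 between responsive and nonresponsive tumors (median −0.17 against −0.07), 1 of 8 against PBS in responsive tumors, Igf2bp2 (lower, median −0.26 against −0.11), and 0 of 8 in nonresponsive tumors (median −0.12 against −0.06). Without nonresponsive tumor 1 and responsive tumor 1, 0 had an unadjusted p under 0.05 in all 3.

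Igf2bp2, the family member that stays active in adult tissues, was 8.66, 7.28 and 7.25 FPKM in the PBS-treated, 6.82, 7.36 and 6.61 in the nonresponsive and 3.23, 6.69 and 4.27 in the responsive tumors. Its difference between responsive and PBS-treated tumors was −0.65 (standard error 0.258, unadjusted limma p under 0.05, adjusted p = 0.289). The let-7 target Hmga1 and Myc, whose message Igf2bp1 protects, had their lowest values in tumor 1 of both treated groups. Hmga1 was 297, 154 and 249 FPKM in the PBS-treated, 98.4, 106 and 284 in the nonresponsive and 57.1, 183 and 102 in the responsive tumors. Myc was 63.9, 40.2 and 45.0 FPKM in the PBS-treated, 7.88, 40.8 and 54.5 in the nonresponsive and 8.71, 47.5 and 25.6 in the responsive tumors.

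Sox9 varied least of the 8 genes tested over the 9 tumors, with an SD of 0.49 on the log2 scale. It was 7.52, 4.82 and 4.56 FPKM in the PBS-treated, 2.20, 2.54 and 4.37 in the nonresponsive and 4.32, 7.78 and 4.53 in the responsive tumors. Nonresponsive tumors 1 and 2 were the lowest of the 9, and nonresponsive tumor 3 lay just under the lowest PBS-treated tumor and just above the lowest responsive tumor. The difference between nonresponsive and PBS-treated tumors was −0.73 (standard error 0.296, exact permutation p = 0.1, limma p = 0.0507, adjusted p = 0.717), and −0.95 without nonresponsive tumor 3 (unadjusted p under 0.05, adjusted p = 0.358). Responsive exceeded nonresponsive tumors by 0.70 (standard error 0.316, exact permutation p = 0.2, limma p = 0.0703, adjusted p = 0.892), and by 0.92 without nonresponsive tumor 3 (unadjusted p under 0.05, adjusted p = 0.912). Responsive and PBS-treated tumors differed by −0.03 (standard error 0.288, exact permutation p = 0.7, limma p = 0.919, adjusted p = 0.956), and this difference changed sign with upper-quartile scaling or without single tumors.

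Of 13 genes of the Notch and Hippo pathways, which act on Sox9 in bile duct cells, 1 was lower in the responsive than in the nonresponsive tumors at an unadjusted p under 0.05, the YAP target Ccn1 (median −0.27 against −0.07). Against PBS 4 were lower in responsive tumors, namely the Notch ligand Jag1 and the YAP targets Ccn1, Amotl2 and Ankrd1 (median −0.41 against −0.11), and 0 differed in nonresponsive tumors (median −0.05 against −0.06). The shares of all genes with such a p were 5.49%, 17.2% and 3.23% in the 3 comparisons. Without nonresponsive tumor 1 and responsive tumor 1 the counts of the list were 0, 1 and 0, against 6.55%, 7.44% and 1.86% of all genes. Ccn1 was 37.7, 59.5 and 39.6 FPKM in the PBS-treated, 36.3, 56.0 and 41.4 in the nonresponsive and 19.9, 28.4 and 34.0 in the responsive tumors, with every responsive tumor below all others. The genes most like Sox9 over the 9 tumors were Spint2, an epithelial protease inhibitor (r = 0.97), Tmed4 (r = 0.97) and the ribosomal protein gene Rpl34 (r = 0.96).

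Epcam had 2.14, 11.4 and 8.41 FPKM in the PBS-treated, 6.15, 4.09 and 2.73 in the nonresponsive and 13.6, 13.4 and 20.9 in the responsive tumors. Every responsive tumor was above every other tumor, and nonresponsive tumors lay within the PBS-treated range. The mean was 16.0 ± 4.27 FPKM (SD, n = 3) in responsive, 4.32 ± 1.73 FPKM (SD, n = 3) in nonresponsive and 7.32 ± 4.73 FPKM (SD, n = 3) in PBS-treated tumors. From nonresponsive to responsive tumors the difference was 1.70 (standard error 0.319, 95% interval 0.91 to 2.48, exact permutation p = 0.1, limma p = 0.00189, adjusted p = 0.719). In all 14 other settings it lay between 1.47 and 2.03 with unadjusted p-values from 0.00134 to 0.0111, and it was 2.03 without nonresponsive tumor 1 and responsive tumor 1 (unadjusted p under 0.05, adjusted p = 0.500). Adjusted p-values over these settings ran from 0.233 to 1.00.

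Against PBS-treated tumors, Epcam was 1.22 higher in responsive tumors (standard error 0.550, exact permutation p = 0.1, limma p = 0.0710, adjusted p = 0.303). The unadjusted p was 0.0329 without PBS-treated tumor 2, where the difference was 1.62, and 0.0455 in a fit of all 9 tumors, and it was 0.0788 without PBS-treated tumor 1, where the difference was 0.63. Nonresponsive tumors differed from PBS-treated tumors by −0.48 (standard error 0.574, exact permutation p = 0.5, limma p = 0.438, adjusted p = 0.737), by −1.07 without PBS-treated tumor 1 (unadjusted p under 0.05, adjusted p = 0.999) and by −0.08 without PBS-treated tumor 2. PBS-treated tumor 1 had both the lowest Epcam and the lowest hepatocyte list mean of all tumors, 3.20.

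The Epcam gene lies on chromosome 17 from base 87635979 to 87651129 on the plus strand (GRCm38, GENCODE M21). Its promoter is shown because Epcam is the gene of the 10 with the lowest p between responsive and nonresponsive tumors, while the difference of H19 was larger. The 250 bases before the RefSeq start (GRCm38.p6, chr17:87635729-87635978, plus strand) are 56.4% G or C, and the capitals mark a GC box, GGGCGG on the minus strand, from 58 to 53 bases before the start. On either strand this box is in 32.7% of the 32851 promoter windows of the same length, and TATAAA had no match in this one.

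Epcam promoter: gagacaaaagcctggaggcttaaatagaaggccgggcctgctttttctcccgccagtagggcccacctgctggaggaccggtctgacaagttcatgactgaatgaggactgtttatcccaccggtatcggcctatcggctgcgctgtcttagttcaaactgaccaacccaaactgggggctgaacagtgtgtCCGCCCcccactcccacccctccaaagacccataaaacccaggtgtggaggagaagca

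The gene most like Epcam was Mmp7, a matrix metalloproteinase of ductal epithelium (r = 0.98). Mmp7 was 1.95, 28.5 and 20.9 FPKM in the PBS-treated, 9.23, 7.53 and 4.04 in the nonresponsive and 24.7, 40.8 and 52.3 in the responsive tumors. It also belongs to the biliary and progenitor list, and exceeded nonresponsive levels in every responsive tumor by 2.34 on average (standard error 0.390, unadjusted limma p under 0.05, adjusted p = 0.506). Mmp7 was picked for its likeness to Epcam over these same tumors, so its difference is no separate support for that of Epcam. The next in likeness were Gm527 (r = 0.95) and the glutathione transferase gene Gsta4 (r = 0.93). Within the 10 genes Epcam ran opposite to H19 (r = −0.85), and the 3 tumors with the lowest H19 were PBS-treated tumor 2 and responsive tumors 2 and 3.

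**Figure D4:**
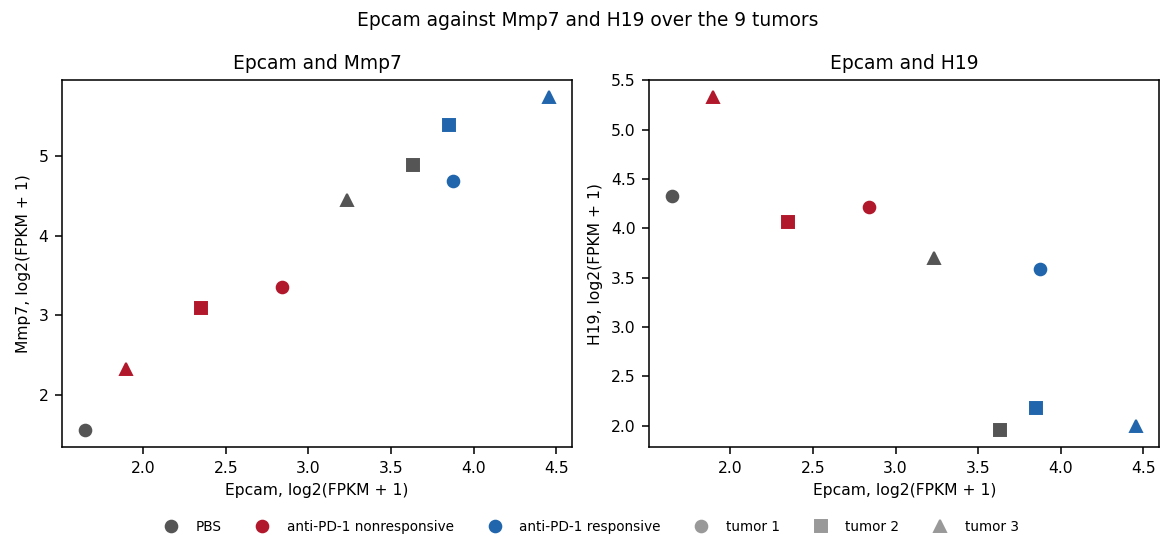
Epcam (horizontal axis) against Mmp7 (left) and H19 (right) in the 9 tumors, all as log2(FPKM + 1), with colors for the groups and symbols for the tumor numbers. Mmp7 is higher where Epcam is higher (r = 0.98), and H19 is lower where Epcam is higher (r = −0.85).

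The other bile duct and progenitor markers did not form 1 block with Epcam. Of 16 genes of that list tested between responsive and nonresponsive tumors, 12 had a positive difference (median 0.22 against −0.07) and 2 were higher at an unadjusted p under 0.05, Mmp7 and the epithelial cadherin gene Cdh1, against 5.49% of all genes. Cdh1, at 8.29, 4.57 and 4.34 FPKM in the nonresponsive and 11.9, 9.76 and 13.4 FPKM in the responsive tumors, differed by 0.95 (standard error 0.283, unadjusted limma p under 0.05, adjusted p = 0.885). Against PBS, 2 of 15, Prom1 and Cdh1, were higher in responsive tumors at an unadjusted p under 0.05, a share below the 17.2% of all genes (median −0.44 against −0.11), and 1 of 15, Cd24a, was lower in nonresponsive tumors, against 3.23% (median −0.72 against −0.06). Without nonresponsive tumor 1 and responsive tumor 1 the counts were 2, 0 and 0, and the median between responsive and nonresponsive tumors turned to −0.15.

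The keratins, by contrast, followed the split of single tumors. Krt18 was 473, 284 and 404 FPKM in the PBS-treated, 44.7, 240 and 566 in the nonresponsive and 80.2, 471 and 193 in the responsive tumors. Krt19, the classic bile duct keratin, picked here after its values were seen, was 212, 58.9 and 136 FPKM in the PBS-treated, 1.47, 69.0 and 194 in the nonresponsive and 5.82, 173 and 51.6 in the responsive tumors. Krt8 was 255, 130 and 189 FPKM, then 51.2, 109 and 247 FPKM, and 99.4, 226 and 112 FPKM in the same order. Nonresponsive tumor 1 and responsive tumor 1 were the lowest of the 9 for all 3, as for Afp and Igf2bp1, while Epcam in these tumors was the highest of the nonresponsive group and within the responsive range.

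Hepatocyte transcripts, like Epcam, had mostly positive differences from both other groups to the responsive tumors, but between nonresponsive and PBS-treated tumors the differences had opposite signs. All 30 mature hepatocyte genes had a positive difference between responsive and nonresponsive tumors (median 1.42 against −0.07), 15 at an unadjusted p under 0.05, and 23 without nonresponsive tumor 1 and responsive tumor 1 (median 1.55). Against PBS 25 of 30 were higher in responsive tumors at such a p (median 2.85), against 17.2% of all genes. Without responsive tumor 1 the count was 7, against 7.44% of all genes, and the median was 2.60. In nonresponsive tumors 29 of 30 had a positive difference from PBS (median 1.41, Epcam −0.48), 1 of them, Uox, at an unadjusted p under 0.05, and 0 without nonresponsive tumor 1 (median 0.99). None of these had an adjusted p under 0.05. 5 of 12 T cell markers (Cd3d, Lck, Cd2, Cd5 and Zap70) were also higher in the responsive than in the nonresponsive tumors at an unadjusted p under 0.05, while 0 of 14 proliferation genes had such a p. The part of these cells in the Epcam and H19 differences was not tested.

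With nonresponsive tumor 1 and responsive tumor 1 left out, a choice made after the data were seen, 4 of the 8 genes had an unadjusted p under 0.05 between responsive and nonresponsive tumors, against 6.55% of 13049 genes tested. Epcam and H19 were joined by Igf2, with a difference of −1.48 (standard error 0.278, unadjusted limma p under 0.05, adjusted p = 0.508), and by Igf2bp1, with −2.04 (standard error 0.674, unadjusted limma p under 0.05, adjusted p = 0.693). Both were lower in responsive tumors. The choice removed 2 values that ran against these differences, Igf2 in responsive tumor 1 (6.13 FPKM) and Igf2bp1 in nonresponsive tumor 1 (0.130 FPKM). Igf2 in nonresponsive tumor 1 (5.47 FPKM) and Igf2bp1 in responsive tumor 1 (0.0655 FPKM), removed too, ran with them. The added calls are thus no separate support. Against PBS-treated tumors 1 gene of the 8 remained in responsive tumors, Igf2bp3 at −0.64 (unadjusted p under 0.05, adjusted p = 0.594, against 7.44% of 13509 genes), and 1 in nonresponsive tumors, Igf2 at 1.29 (unadjusted p under 0.05, adjusted p = 1.00, against 1.86% of 13423 genes).

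**Figure D5:**
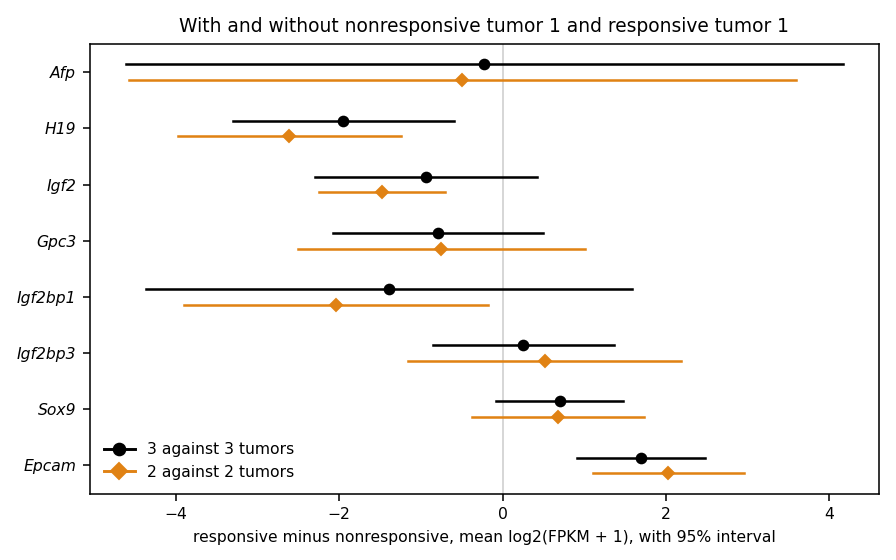
Difference between responsive and nonresponsive tumors in mean log2(FPKM + 1) for the 8 tested genes, with 95% intervals from limma, using all 3 against 3 tumors (black circles) or leaving out tumor 1 of both groups (orange diamonds). Epcam moves from 1.70 to 2.03 and H19 from −1.95 to −2.61, and the intervals of Igf2 and Igf2bp1 no longer reach 0.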

How the data were processed

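Total RNA of 9 tumors was sequenced from TruSeq Illumina libraries, and each tumor is 1 mouse. The authors deposited a Cufflinks gene table for each tumor with FPKM values and their 95% bounds. The submitters' processing notes name TopHat2 2.1.1, Bowtie2 2.2.4 and build mm8. The tables name no build and their loci are offset from GRCm38 positions, so gene positions are given from GENCODE M21 (GRCm38). The authors' table of Cuffdiff fold changes and p-values was not used. The tables hold no counts, so depth is not known, and the bounds cover counting error only.

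FPKM was summed over the entries naming a symbol, and symbols sharing all their entries counted as 1 gene. Genes with equal values in some tumors only, such as C1qb with C1qc and Serpina1b with Serpina1c of the hepatocyte list, stayed separate. 19 symbols on several chromosomes and 13 with a failed estimate were left out. The 6 tumors of each comparison were fitted in limma 3.58.1 (lmFit, eBayes with trend, R 4.3.3) as log2(FPKM + 1), for genes at 1 FPKM or more in at least 3 of them, with Benjamini-Hochberg adjustment over all genes tested. Differences are on this scale and understate changes of low genes. The steps were tested on simulated data. Exact permutation tests (Python 3.11.15) were two-sided. Plots used matplotlib 3.10.9.

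The 10 genes and the marker lists were chosen with earlier results of these data known. From each list, up to 4 genes of highest mean FPKM could be named, as could the 3 genes most like each of the 4 members at 1 FPKM or more in all tumors. Genes named because a count was 5 or fewer, or as picked, were chosen after their values were seen. Alternatives were a pseudocount of 0.1, no filter, a filter at 5 FPKM, upper-quartile scaling, 1 fit of all 9 tumors, joined loci, a replicate block and leaving out each tumor, and, added after the data were seen, leaving out nonresponsive tumor 1 and responsive tumor 1. In a comparison with PBS the last setting repeats the fit without 1 tumor, and both are counted among the settings.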

Additional observations from a re-analysis of the deposited data

How the results depend on the processing

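Leaving out 1 tumor at a time moved the number of the 8 genes with an unadjusted p under 0.05 between 2 and 3 for responsive against nonresponsive, 1 and 4 for responsive against PBS, 1 and 3 for nonresponsive against PBS, and 0 and 2 for the F-test. Over all genes, of 13376 to 14324 tested, these fits gave 310 to 1426, 1005 to 3871, 217 to 1860 and 587 to 1728 with such a p. The count of 4 against PBS came without responsive tumor 2, where 3871 of 13537 genes had such a p. Same-numbered tumors of different groups had correlations of their deviations from −0.39 to 0.48, and differently numbered tumors from −0.47 to 0.46. These ranges do not show a pairing by replicate number, and the highest value was that of nonresponsive tumor 1 with responsive tumor 1. The fit with a replicate block gave 4, 0, 1 and 1, against 937 of 13837, 947 of 13844, 237 of 13798 and 705 of 14466 genes. Without nonresponsive tumor 1 and responsive tumor 1 together the counts were 4, 1, 1 and 1. A filter at 5 FPKM gave 0 against PBS in both treated groups, where fewer genes were tested, and a pseudocount of 0.1 or no filter gave 1 for nonresponsive against PBS. The cause was not tested for the other changes. No gene of the 10 had an adjusted p under 0.05 in any setting.

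Directions turned as follows. Leaving out single tumors took Afp between responsive and nonresponsive tumors from −1.62 to 1.10 and between nonresponsive and PBS from −2.59 to 0.13, Igf2bp3 between responsive and nonresponsive from −0.17 to 0.45, Igf2 between responsive and PBS from −0.18 to 0.82, Sox9 there from −0.26 to 0.16, Gpc3 between nonresponsive and PBS from −0.025 to 0.46 and Igf2bp1 there from −1.16 to 1.05. Without both tumors, Igf2 (−0.18) and Sox9 (0.10) between responsive and PBS and Afp (0.13) and Igf2bp1 (1.05) between nonresponsive and PBS reversed. Each comparison with PBS holds only 1 of these tumors, so these reversals repeat the fits without that single tumor. Upper-quartile scaling turned Sox9 between responsive and PBS to 0.0059. Of all settings of all results, 275 kept direction and call, 20 gained and 11 lost a call, and 17 reversed. In this tally the fits against PBS without responsive tumor 1 or nonresponsive tumor 1 entered 2 times.

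Over all genes, the number with an unadjusted p under 0.05 ran from 310 to 1426, from 947 to 3871, from 217 to 1860 and from 587 to 1793 in the 4 tests over the settings, and with an adjusted p under 0.05 from 0 to 32, 0 to 49, 0 to 30 and 9 to 34. The depth of the libraries is not known, and levels under 1 FPKM, as for Dlk1 and Lin28b, carry no comparison.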
